A study of Anser cygnoides with 12 samples.

Results

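The 9 genes described here were LGR5, SMOC2, AXIN2, EPHB2, EPHB3, SOX9, RNF43, ZNRF3 and LRIG1. They mark stem and progenitor cells of the intestinal crypt or belong to the Wnt pathway that maintains them. They were chosen by name, with earlier results of these data known, and all 9 were among the 18007 genes of the expression table. The samples were jejunal tissue from 12 female Sichuan white geese (Anser cygnoides), 250 days old at the start and fed for 12 weeks. The control (Con) group received a basal corn and soybean diet, the low wheat germ (LWG) group a diet with 21.8% wheat germ and the high wheat germ (HWG) group a diet with 43.6% wheat germ, with 4 geese sequenced in each group. No gene was altered in any bird and each library came from 1 goose, so n = 4 per group throughout. All 12 samples were labelled jejunum and taken as whole tissue, which holds muscle, connective tissue, vessels and immune cells beside the epithelium.

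The intestinal epithelium is renewed from the base of the crypts, where stem cells receive Wnt signals from neighbouring cells. R-spondins bind LGR receptors and strengthen the response, whereas RNF43 and its homologue ZNRF3 are membrane ubiquitin ligases that remove Frizzled receptors and so weaken it. AXIN2 is a scaffold of the complex that degrades beta-catenin, and the Wnt pathway induces it as a negative feedback. LGR5, an R-spondin receptor, and SMOC2, a secreted matricellular protein, mark crypt base stem cells in mice. EPHB2 and EPHB3 are receptor tyrosine kinases that keep proliferating cells in the crypt, SOX9 is a transcription factor of stem and progenitor cells, and LRIG1 is a membrane protein that restrains ERBB signaling and marks stem cells in mice. These roles were established mainly in mammals.

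Library totals ranged from 40159187 to 45686956 counts, and 14863 genes, including the 9 members, passed the filter on low counts. No gene passed an adjusted p of 0.05 in any of the 3 diet comparisons in edgeR's quasi-likelihood test with Benjamini-Hochberg adjustment. At an unadjusted p under 0.05, 985 genes (6.63%) differed in LWG against Con, 619 (4.16%) in HWG against Con and 1569 (10.6%) in HWG against LWG, and DESeq2 called 37, 5 and 110 genes after adjustment in the same comparisons. The members are therefore read at an unadjusted p under 0.05, beside the share of all tested genes past it in the same direction. Epithelial, smooth muscle, fibroblast, endothelial and immune markers were detected in every library, and the 9 detectable enterocyte markers split the geese into 2 clusters, as given below with the results they touch.

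Per length of transcript, AXIN2 was the most abundant member and SMOC2 the least. Over the 12 geese AXIN2 averaged 16.3 FPKM (a level normalised for transcript length and library size), EPHB3 14.9, EPHB2 13.8, LRIG1 8.60, LGR5 7.62, RNF43 6.91, ZNRF3 3.98, SOX9 3.51 and SMOC2 2.07 FPKM. In this order RNF43 was above ZNRF3 and SOX9 above SMOC2 in 12 of 12 geese, and EPHB2 was above LRIG1 in 11 of 12. AXIN2 exceeded EPHB3 in 8 of 12 geese and EPHB3 exceeded EPHB2 in 6 of 12, so these 3 genes did not separate beyond the spread between geese. LRIG1 was above LGR5 in 10, LGR5 above RNF43 in 9 and ZNRF3 above SOX9 in 8 of 12 geese.

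The following values per goose are in CPM, gene counts scaled to a common library size after TMM scaling, the trimmed-mean normalization of edgeR, and follow the order of replicates 1 to 4. The stem cell marker LGR5 measured 28.8, 54.7, 41.3 and 47.7 CPM in Con, 48.4, 65.8, 25.0 and 24.1 CPM in LWG, and 53.0, 48.3, 56.3 and 80.4 CPM in HWG. The 4 HWG geese lay within a narrower band than the LWG geese, which split into 2 high and 2 low birds, and all 3 groups overlapped. Compared to the control group, LGR5 differed by a log2 fold change of 0.46 ± 0.32 (SE) in HWG (adjusted p = 0.939, edgeR) and of -0.08 ± 0.31 in LWG (adjusted p = 0.989). SMOC2 measured 4.31, 9.42, 5.23 and 5.31 CPM in Con, 8.13, 11.4, 1.76 and 4.14 CPM in LWG, and 14.2, 14.0, 7.09 and 13.0 CPM in HWG. In all, 3 of the 4 HWG geese were above every Con and LWG goose, and HWG replicate 3 was inside the range of both. SMOC2 averaged 12.1 ± 3.37 CPM in HWG and 6.07 ± 2.28 CPM in Con (SD, n = 4 each), a log2 fold change of 0.99 ± 0.47 that did not pass an unadjusted p of 0.05 (adjusted p = 0.939, edgeR) and was the largest difference of any member from Con. Against LWG it was 0.93 ± 0.47 (adjusted p = 0.507), also short of that threshold.

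**Figure D1:**
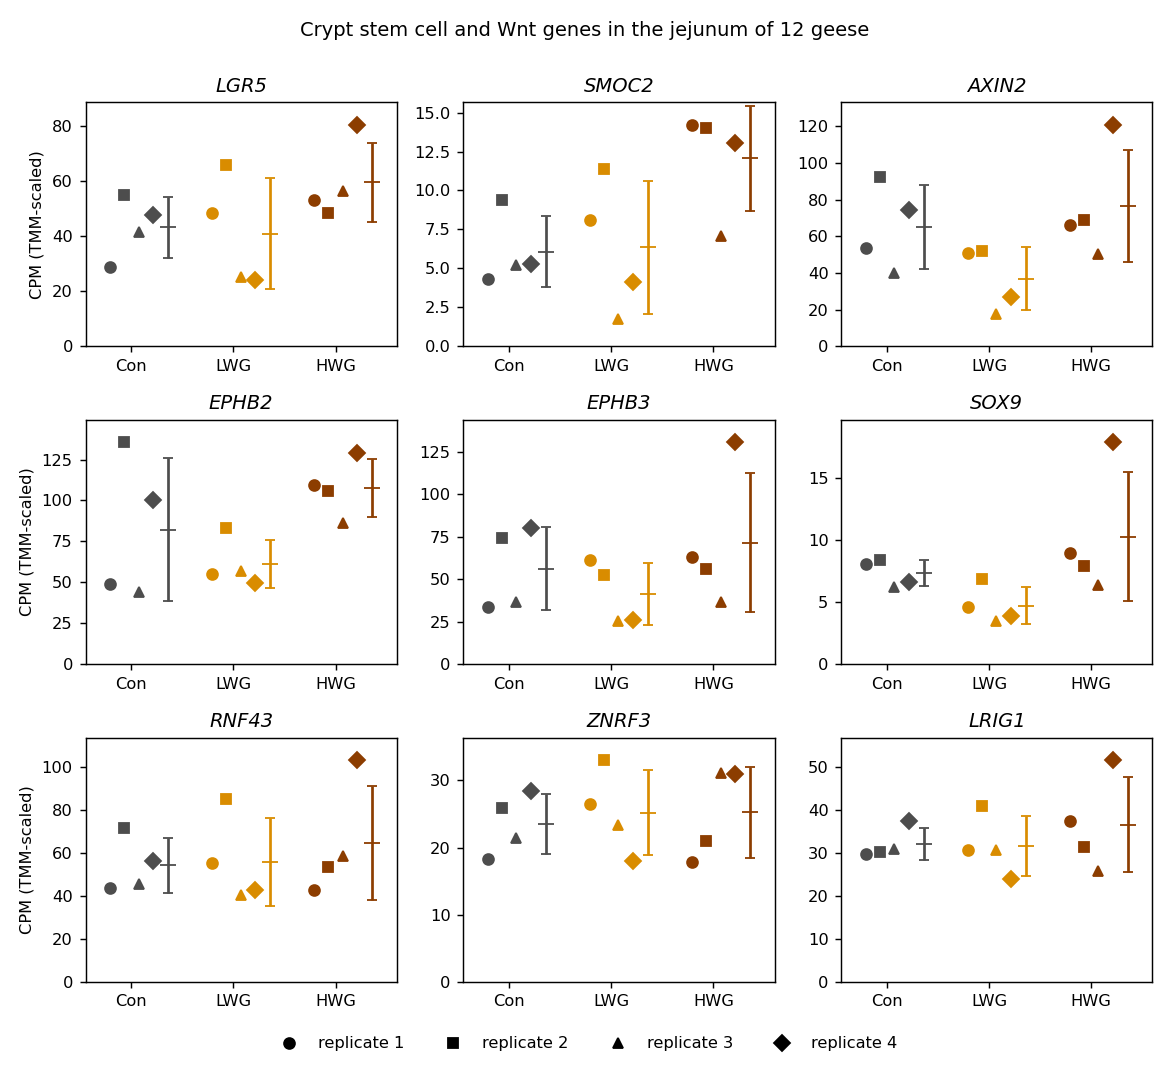
TMM-scaled CPM of the 9 genes in each of the 12 geese, 1 panel per gene, with Con, LWG and HWG from left to right; marker shapes stand for replicates 1 to 4, and the dash with bars is the mean ± SD of 4 geese. HWG replicate 4 (diamond) was the highest goose for 6 of the 9 genes, and the EPHB2 values of the HWG group (86.0 to 129 CPM) sat above all those of the LWG group (49.5 to 83.0 CPM).

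AXIN2, the negative feedback gene of the pathway, measured 53.7, 92.5, 40.0 and 74.5 CPM in Con, 50.9, 51.8, 17.8 and 27.1 CPM in LWG, and 66.1, 68.9, 50.5 and 121 CPM in HWG. It was lowest in LWG, where replicates 3 and 4 lay below every other goose, and HWG replicate 4 was the highest. AXIN2 averaged 36.9 ± 17.1 CPM in LWG and 65.1 ± 23.1 CPM in Con, a log2 fold change of -0.82 ± 0.37 that passed the unadjusted threshold (adjusted p = 0.745, edgeR). In HWG it averaged 76.6 ± 30.7 CPM, a log2 fold change of 1.05 ± 0.37 against LWG, which also passed it (adjusted p = 0.388), and of 0.23 ± 0.37 against Con (adjusted p = 0.950). HWG and LWG overlapped only through HWG replicate 3, which lay just under LWG replicates 1 and 2.

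RNF43 and ZNRF3, the ligases that remove Frizzled receptors, did not differ detectably between diets. RNF43 measured 43.5, 71.5, 45.6 and 56.5 CPM in Con, 55.3, 85.2, 40.2 and 42.6 CPM in LWG, and 42.9, 53.6, 58.6 and 104 CPM in HWG. ZNRF3 measured 18.3, 25.9, 21.4 and 28.4 CPM in Con, 26.4, 33.1, 23.3 and 18.0 CPM in LWG, and 17.8, 21.0, 31.1 and 31.0 CPM in HWG. The ranges of the 3 groups overlapped for both genes, and their log2 fold changes ran from 0.00 ± 0.24 for ZNRF3 in HWG against LWG to 0.25 ± 0.30 for RNF43 in HWG against Con, with adjusted p of at least 0.823 (edgeR).

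The Eph receptors were the members with the widest spread within Con. EPHB2 measured 48.9, 136, 43.9 and 100.1 CPM in Con, 55.3, 83.0, 56.6 and 49.5 CPM in LWG, and 109, 106, 86.0 and 129 CPM in HWG. Every HWG goose was above every LWG goose, whereas the Con geese spanned nearly the whole range, with replicates 2 and 4 high and replicates 1 and 3 low. EPHB2 was the only member with 2 diets that did not overlap; of all tested genes, 2.44% were higher and 1.94% lower in HWG than in LWG without overlap, and the shares were 1.18% and 1.68% in LWG against Con and 1.1% and 1.21% in HWG against Con. It averaged 108 ± 17.6 CPM in HWG and 61.1 ± 14.9 CPM in LWG, a log2 fold change of 0.82 ± 0.32 that passed the unadjusted threshold (adjusted p = 0.420, edgeR). EPHB3 measured 33.6, 73.9, 36.6 and 80.0 CPM in Con, 61.2, 52.4, 25.2 and 26.1 CPM in LWG, and 62.7, 56.0, 36.5 and 131 CPM in HWG. Its groups overlapped in all comparisons, and its log2 fold change was 0.79 ± 0.43 in HWG against LWG (adjusted p = 0.527) and -0.44 ± 0.42 in LWG against Con (adjusted p = 0.903).

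SOX9 had low CPM in all groups, with 8.07, 8.40, 6.21 and 6.64 CPM in Con, 4.61, 6.89, 3.50 and 3.89 CPM in LWG, and 8.94, 7.91, 6.41 and 17.9 CPM in HWG. In LWG, 3 of the 4 geese lay below every Con and HWG goose, and HWG replicate 4 stood above all other birds. SOX9 averaged 10.3 ± 5.19 CPM in HWG and 4.72 ± 1.52 CPM in LWG, a log2 fold change of 1.12 ± 0.33 that passed the unadjusted threshold, with the smallest adjusted p of any member (0.369, edgeR). Against Con, the log2 fold change was -0.63 ± 0.33 in LWG (adjusted p = 0.774) and 0.49 ± 0.32 in HWG (adjusted p = 0.939). LRIG1 measured 29.7, 30.2, 31.0 and 37.5 CPM in Con, 30.8, 41.0, 30.6 and 24.0 CPM in LWG, and 37.4, 31.4, 25.9 and 51.7 CPM in HWG. Its group means were within 0.21 ± 0.22 of each other on the log2 scale (adjusted p of at least 0.751, edgeR).

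In LWG against Con, 1 of the 9 members was lower at an unadjusted p under 0.05 (AXIN2) and none was higher, beside 3.8% of all tested genes lower and 2.83% higher. Leaving out Con replicate 2, Con replicate 4, LWG replicate 3 or LWG replicate 4 brought the count to 0, and leaving out Con replicate 3 or LWG replicate 2 brought it to 2. Over all genes, 565 of 14863 were lower in the full fit, and 380, 343, 509, 650, 1011 and 470 in these refits. The refits are in the order just given and tested 15039 to 15079 genes each. In HWG against Con, 0 of 9 members passed, beside 2.13% of genes higher and 2.04% lower. Without Con replicate 2 the count was 2, and without HWG replicate 3 it was 1. Over all genes, these refits called 327 higher and 316 lower of 15043, and 838 and 815 of 15079. The full fit of HWG against Con called 316 and 303 of 14863. The fold change of all 9 was above 0 in that comparison, where 48.7% of all genes were. Markers of other cells were also above 0 there. They were 8 of 8 for smooth muscle, 8 of 9 for fibroblasts, 5 of 6 for endothelium and 8 of 9 for neurons and glia. The numbers were 2 of 2 for pacemaker cells, 5 of 9 for goblet and endocrine cells, 5 of 8 for immune cells, 1 of 9 for enterocytes and 0 of 6 for general epithelium. Of the members, 3 of 9 were above 0 in LWG against Con, beside 51.1% of genes, and 9 of 9 in HWG against LWG, beside 50.6%. In HWG against LWG, 3 of 9 members were higher (AXIN2, EPHB2 and SOX9) and none lower, beside 5.15% of genes higher and 5.41% lower. Without HWG replicate 4 only SOX9 was left, and without LWG replicate 2 or HWG replicate 3 the count was 5. Calls over all genes moved too, from 765 higher and 804 lower of 14863 in the full fit. They were 573 and 529 of 15034 without HWG replicate 4. Without LWG replicate 2 they were 855 and 733 of 15039, and without HWG replicate 3 they were 1465 and 1539 of 15079. The median log2 fold change of the members was -0.08 in LWG against Con, 0.35 in HWG against Con and 0.79 in HWG against LWG, where the medians of all genes were 0.01, -0.01 and 0.01. The 3 comparisons share their groups and are not independent of each other. The members also varied together from goose to goose, as described below, so their signs are not separate observations. A single left-out goose could reverse the sign of AXIN2, EPHB3, RNF43, ZNRF3 or LRIG1 in HWG against Con.

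**Figure D2:**
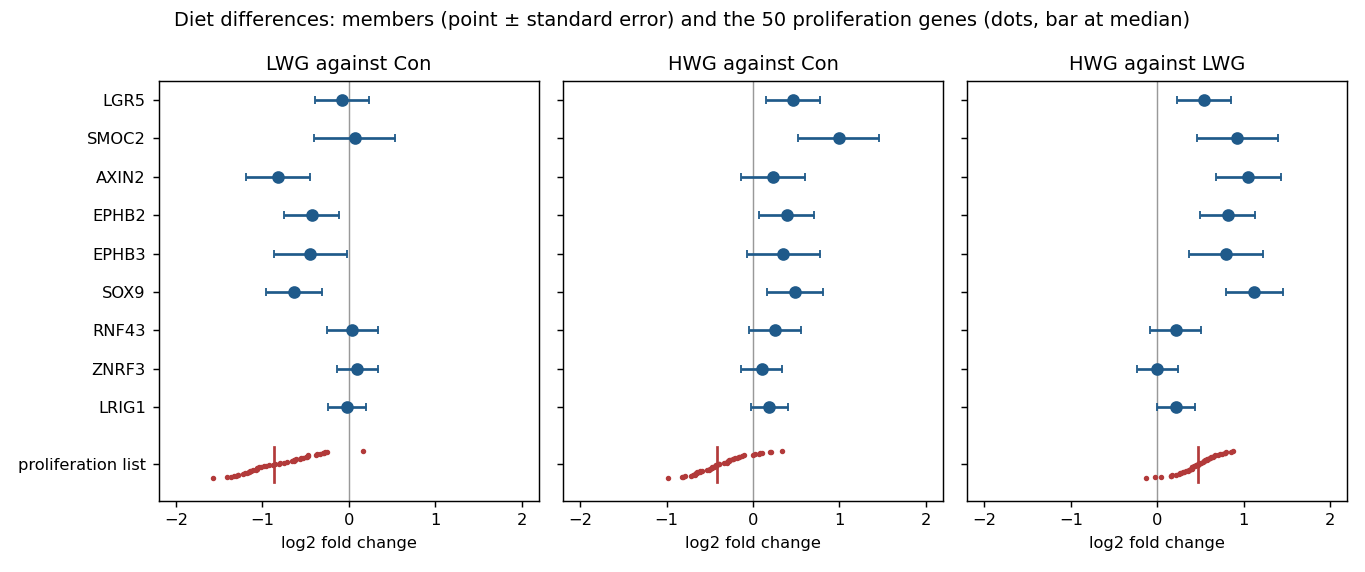
Log2 fold change (x axis) of each of the 9 genes with its standard error in LWG against Con, HWG against Con and HWG against LWG, with the 50 measured proliferation genes as dots in the bottom row and a bar at their median. In LWG against Con the proliferation genes lay around -0.86 while 5 members lay between -0.08 and 0.10 and the other 4 between -0.82 and -0.43; in HWG against Con the proliferation median was -0.41 and all 9 members were above 0.

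The diets were next compared for overall proliferation, using 53 genes of DNA replication and mitosis, of which 50 were measured. In LWG against Con, 32 of the 50 passed an unadjusted p of 0.05 in the lower direction and 0 in the higher, beside 3.8% and 2.83% of all tested genes, with a median log2 fold change of -0.86. All 28 genes of G2 and M phase were among them (median -1.12), against 4 of 22 genes of S phase (median -0.49). CENPF is 1 of these 28, and the paper lists it as up-regulated in LWG compared to control, the opposite direction. The source of that difference was not tested. In HWG against Con, 5 of 50 were lower and none higher (median -0.41), beside 2.04% and 2.13% of all genes. Between HWG and LWG, 6 were higher in HWG and none lower (median 0.47), beside 5.15% and 5.41%. None of the 50 passed an adjusted p of 0.05. A proliferation score, the mean over these genes of log2 CPM centred on each gene's mean, was 0.37, 0.72, -0.38 and 0.83 in Con, -0.76, -0.91, -0.24 and 0.11 in LWG, and 0.23, 0.38, -0.31 and -0.04 in HWG. Con replicates 2 and 4 had the highest scores and LWG replicates 1 and 2 the lowest. The score averaged -0.45 ± 0.47 in LWG and 0.38 ± 0.55 in Con (exact permutation test over 70 divisions, two-sided p = 0.0857). In HWG it averaged 0.07 ± 0.30, with p = 0.371 against Con and p = 0.143 against LWG in the same exact test.

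The members were next set beside this score. The stem cell markers LGR5 (-0.08) and SMOC2 (0.07) and the ligases RNF43 (0.04) and ZNRF3 (0.10) lay near 0 on the log2 scale in LWG against Con, as did LRIG1, where the median proliferation gene was at -0.86. The other 4 members had negative values in the same comparison, with AXIN2 at -0.82, SOX9 at -0.63, EPHB3 at -0.44 and EPHB2 at -0.43. In HWG against Con the members had a median of 0.35 and the proliferation genes of -0.41. Medians of the cell type marker lists in that comparison ran from -0.40 (enterocytes) to 0.69 (smooth muscle), with 0.39 for fibroblasts. Over the 12 geese, none of the 9 members was correlated with the proliferation score at an unadjusted p under 0.05 in a permutation test with 100000 resamples. Of the 14813 tested genes outside the proliferation list, 9.25% were positively correlated at that level, 2.19% after Benjamini-Hochberg adjustment over all of them, and 0.574% were negatively correlated after adjustment. EPHB2 had the highest Pearson correlation (r = 0.42, permutation p = 0.170, adjusted p = 0.495; Spearman rho = 0.46, p = 0.133). AXIN2 came next (r = 0.38, permutation p = 0.228, adjusted p = 0.562; rho = 0.58, p = 0.0526), and ZNRF3 had the lowest value (r = -0.34, permutation p = 0.268, adjusted p = 0.600; rho = -0.39, p = 0.208). LGR5 had r = -0.13 (permutation p = 0.680; rho = -0.22, p = 0.499), and the other 5 members lay between -0.15 and 0.28.

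The order of LGR5 against the score differed between diets. LWG replicates 1 and 2 had the lowest proliferation scores of all 12 geese but 48.4 and 65.8 CPM of LGR5, and replicates 3 and 4 had higher scores and 25.0 and 24.1 CPM. In Con, by contrast, replicates 2 and 4 had both the highest scores and the highest LGR5. In both diets the 2 geese with the higher LGR5 were those that expressed HOXA10, a gene of gut position described further on. After removal of the group means, r was -0.42 for LGR5, 0.01 for AXIN2 and 0.39 for EPHB2, with exact permutation p from 0.235 to 0.974 over the 9 members. Without Con replicate 4 and LWG replicate 2, the geese farthest from the median score, r was 0.51 for EPHB2, 0.39 for AXIN2 and 0.00 for LGR5. In an edgeR fit with the score beside diet, the slope on the score passed an adjusted p of 0.05 for 0 of 9 members and for 1.26% of all genes. In that fit, 0 of 9 members passed an unadjusted p of 0.05 in LWG against Con and in HWG against Con. In HWG against LWG 3 did: SOX9 (log2 fold change 1.26 ± 0.40), AXIN2 (1.08 ± 0.48) and LGR5 (0.85 ± 0.37). Each had an adjusted p of at least 0.749 in edgeR. At the unadjusted threshold, the same fit called 270 of the 14863 tested genes higher and 275 lower in LWG against Con. The counts were 442 and 502 in HWG against Con, and 427 and 497 in HWG against LWG. Without the score they were 420 and 565, 316 and 303, and 765 and 804, in the same order of comparisons.

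**Figure D3:**
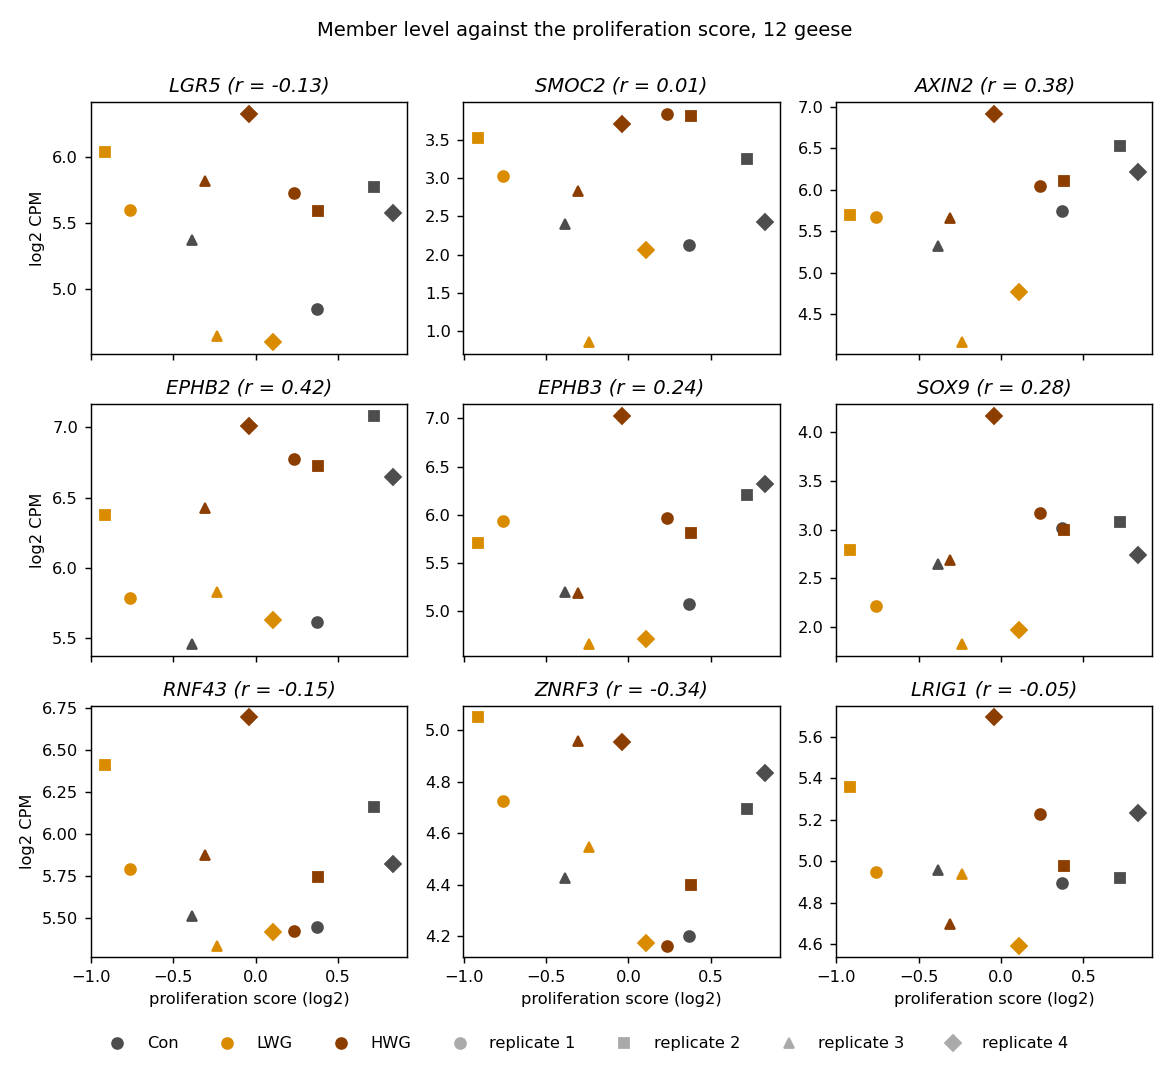
Log2 CPM of each gene (y axis, scaled per panel) against the proliferation score (x axis, mean centred log2 CPM of 50 genes) in 12 geese, coloured by diet, with Pearson's r in each panel title. The values of r ran from -0.34 (ZNRF3) to 0.42 (EPHB2), and LWG replicates 1 and 2 combined the lowest scores with middle to high levels of LGR5, RNF43 and ZNRF3.

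The members varied together from goose to goose. All 36 pairs had a positive Pearson correlation of log2 CPM over the 12 geese, from 0.234 for SMOC2 with ZNRF3 to 0.902 for AXIN2 with EPHB3. Removal of the group means left all 36 positive, from 0.266 to 0.916 for the same pairs. HWG replicate 4 ranked 10th to 12th of 12 for every member, and LWG replicate 4 ranked 1st to 3rd. The pairs share their libraries, so these values describe the geese and were not tested. The coefficient of variation of CPM over the 12 geese ranged from 22.1% for ZNRF3 to 52.6% for EPHB3, with a median of 39.0% for the members and 28.8% for all tested genes.

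Markers of other cells differed between the same libraries. In bulk tissue, fewer cells of a type and less RNA per cell cannot be told apart. The summed CPM of the 9 measured enterocyte markers, of 16 listed, ranged from 3174 to 19856 in HWG, from 13049.7 to 22435 in LWG and from 4020.3 to 21685 in Con. Con replicates 2 and 4 and HWG replicates 1, 2 and 4 had the low enterocyte scores (-1.75 to -0.93), and the other 7 geese, including all of LWG, had 0.16 to 1.43. AXIN2 and EPHB2 were higher in the 5 geese with low enterocyte scores than in any other goose, which held for 1.65% of all genes outside the marker list. AXIN2 measured 66.1 to 121 CPM in the 5 geese and 17.8 to 53.7 CPM in the other 7, and EPHB2 measured 100.1 to 136 CPM in the 5 geese and 43.9 to 86.0 CPM in the other 7. In a permutation test of Pearson's r over all 12 geese, 4 of 9 members were negatively correlated with the enterocyte score after adjustment, AXIN2 (adjusted p = 0.0073), EPHB3 (0.016), SOX9 (0.032) and EPHB2 (0.036), beside 3.81% of genes. With Spearman's rho in the same permutation test, only AXIN2 passed adjustment (adjusted p = 0.012). EPHB3 was then at 0.059, EPHB2 at 0.074 and SOX9 at 0.078. The coefficients are not given, because both tests span the 2 clusters. After removal of the group means none of the 9 passed adjustment (smallest adjusted p = 0.062, AXIN2, permutation test). Within the 7 geese with the higher scores, Pearson's r between member and enterocyte score ran from -0.49 (AXIN2) to 0.07 (ZNRF3), with exact permutation p of at least 0.265. A fit with the enterocyte score as a covariate was added after the data were seen. In it, 0 of 9 members passed an unadjusted p of 0.05 in any comparison. At that p, the same fit called 554 of the 14863 tested genes higher and 363 lower in LWG against Con. The counts were 240 and 384 in HWG against Con, and 235 and 360 in HWG against LWG. Without the score, 765 genes were higher and 804 lower in HWG against LWG. With it, AXIN2 was at 0.40 ± 0.30, EPHB2 at 0.27 ± 0.26 and SOX9 at 0.66 ± 0.35 in that comparison (edgeR). Without it they were at 1.05, 0.82 and 1.12. What lowered these values was not tested.

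Connective tissue and vessel markers were higher in HWG than in LWG as were the 3 members above. The 9 measured fibroblast markers summed to 2453 to 5009.8 CPM in HWG, 1807 to 2461 CPM in LWG and 1753 to 3591 CPM in Con, and 5 of 9 were higher in HWG than in LWG at an unadjusted p under 0.05. The 6 endothelial markers summed to 316 to 458 CPM in HWG, 191 to 350.1 CPM in LWG and 281 to 374 CPM in Con, and 5 of 6 were higher in HWG than in LWG. Of all tested genes, 5.15% were higher and 5.41% lower in HWG than in LWG at that p. The 8 measured smooth muscle markers overlapped between diets, with 5375 to 28539 CPM in HWG, 6701 to 14108 CPM in LWG and 4456 to 16536 CPM in Con. Of these 8, 1 was higher in HWG than in LWG at that p, and all 8 had a fold change above 0 (median 0.64), beside 50.6% of genes. In a permutation test of Pearson's r over all geese, no member was correlated with the fibroblast, smooth muscle or general epithelial score after adjustment. At an unadjusted p under 0.05, EPHB2 (r = 0.61, p = 0.036) and AXIN2 (r = 0.59, p = 0.043) followed the fibroblast score. SMOC2 (r = -0.65, p = 0.026) ran against the epithelial score. With Spearman's rho in that test the smallest adjusted p was 0.054 (AXIN2, epithelial score). How much these cells add to the member values was not tested. The 6 measured general epithelial markers overlapped, with 1258 to 2959 CPM in HWG, 1984 to 2946 CPM in LWG and 1571 to 3034 CPM in Con. The 9 measured enterocyte markers all had a fold change below 0 in HWG against LWG (median -1.06), and 2 were lower at that p. Goblet and endocrine cell markers (0 of 9), neuron and glia markers (1 of 9 higher) and immune markers (0 of 8) showed few differences between HWG and LWG at that p, and of the 2 pacemaker cell markers 1 was higher in HWG.

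**Figure D4:**
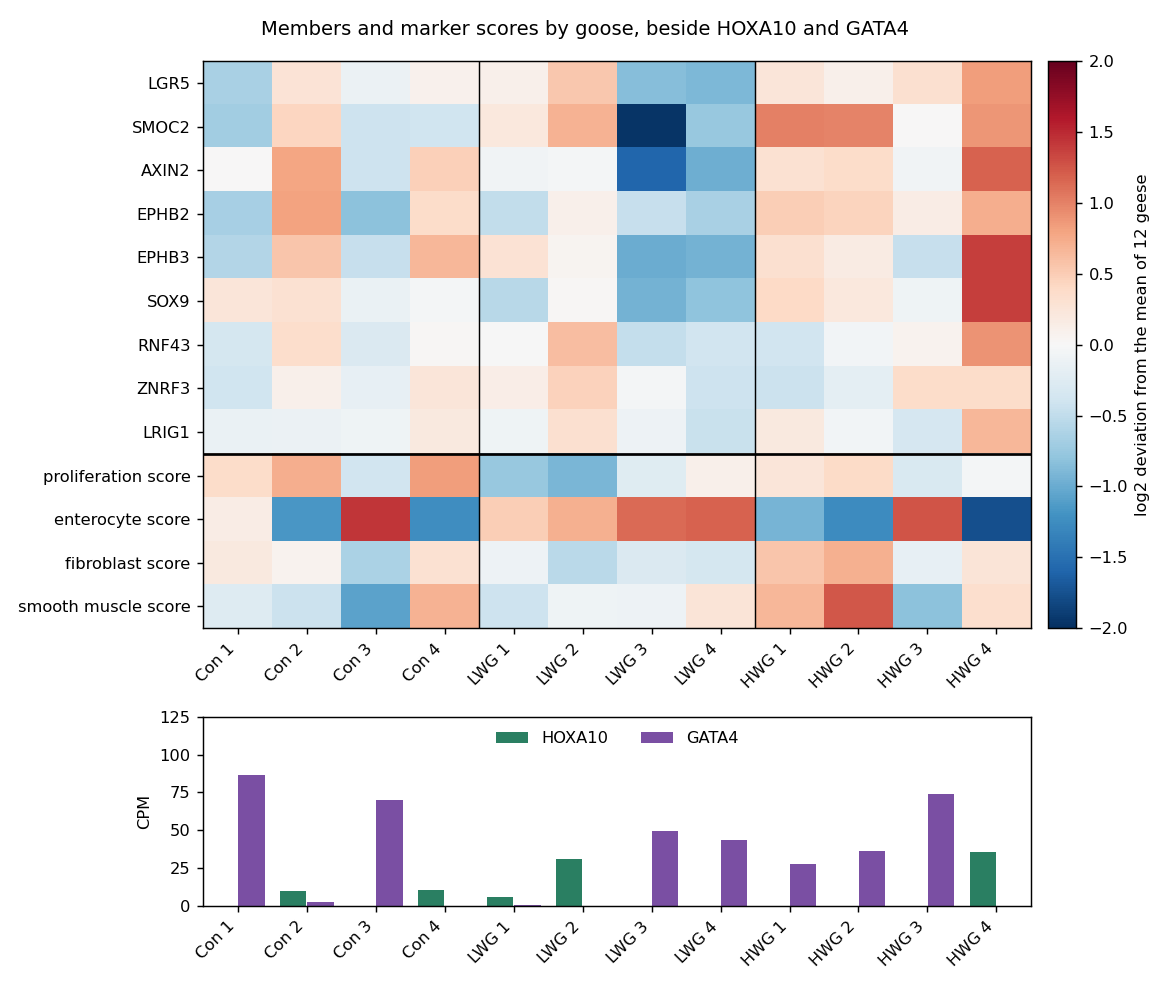
Upper panel, log2 deviation of each gene from its mean over the 12 geese, with proliferation and cell type scores below the line; lower panel, CPM of HOXA10 and GATA4 in the same geese. HWG replicate 4 was high and LWG replicate 4 low for every member, and the 5 geese with HOXA10 of 5.75 to 35.6 CPM had GATA4 of at most 2.66 CPM.

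The geese also fell into 2 kinds by HOXA10 and GATA4, genes that mark position along the gut. HOXA10, a posterior Hox gene, measured 5.75 to 35.6 CPM in Con replicates 2 and 4, LWG replicates 1 and 2 and HWG replicate 4, and 0 to 0.166 CPM in the other 7 geese. GATA4, a transcription factor of the proximal small intestine in mice, measured at most 2.66 CPM in those 5 geese and 27.5 to 86.6 CPM in the other 7. FABP6, also examined for gut position, did not split the geese in this way. It measured 693 to 7666 CPM in those 5 geese and 3226 to 22451 CPM in the other 7. Its lowest value was in HWG replicate 4 and its highest in LWG replicate 4. Position along the gut was not settled by these genes. LGR5, AXIN2, EPHB3 and RNF43 were higher in the HOXA10 geese of each diet without overlap, which held for 3.58% of all tested genes, and SMOC2, EPHB2, SOX9, ZNRF3 and LRIG1 did not follow this order in every diet. With the log ratio of HOXA10 to GATA4 as a covariate, also added after the data were seen, 3 of 9 members passed an unadjusted p of 0.05 in LWG against Con (AXIN2, EPHB3 and SOX9, all lower), 4 in HWG against Con (LGR5, SMOC2, EPHB2 and EPHB3, all higher) and 6 in HWG against LWG (those 4, AXIN2 and SOX9, all higher), with a smallest adjusted p of 0.0672 in edgeR. None of these passed after adjustment. At an unadjusted p under 0.05, that fit called 646 of the 14863 tested genes higher and 720 lower in LWG against Con. The counts were 552 and 580 in HWG against Con, and 1162 and 1452 in HWG against LWG. Without the covariate they were 420 and 565, 316 and 303, and 765 and 804, in the same order of comparisons. The HOXA10 geese were unevenly spread over the diets, with 1 in HWG and 2 each in LWG and Con.

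Other genes of the pathway were counted by role, with log2 fold changes (± SE) in parentheses; higher and lower here mean past an unadjusted p of 0.05, and no gene passed adjustment in edgeR. For the genes named here the smallest adjusted p was 0.626 in LWG against Con (FST), 0.939 in HWG against Con and 0.338 in HWG against LWG (BMPR2). Of 14 measured Wnt ligands, R-spondins and their secretion factor, 13 had a fold change above 0 in HWG against Con, beside 48.7% of all genes. WLS, the carrier that brings Wnt proteins to the cell surface, was the 1 that passed there (0.53 ± 0.22). RSPO3, a ligand of the LGR receptors, was lower in LWG than in Con (-0.55 ± 0.22), where WNT5B (-0.80) and WNT5A (-0.60) did not pass. In HWG against LWG, WNT5A (1.09), WNT5B (1.19), RSPO3 (0.65) and WLS (0.60) were higher. WNT4 was at 0.76 in HWG against Con. The median of the 14 genes was -0.18 in LWG against Con, 0.37 in HWG against Con and 0.60 in HWG against LWG, where the medians of all genes were within 0.01 of 0. Of all tested genes, 3.8% were lower in LWG against Con, 2.13% higher in HWG against Con and 5.15% higher in HWG against LWG. The genes of a list share their libraries, so their signs are not separate observations.

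Among 18 Wnt receptors none passed against Con in either wheat germ group. In HWG against LWG, FZD6 (0.53), FZD8 (0.74) and the WNT5A receptor ROR2 (0.63) were higher, and the R-spondin receptor LGR4 (-0.70) and the co-receptor LRP6 (-0.91, named after its values were seen) were lower. LGR6, a homologue of LGR5, was at -1.66 ± 0.79 in LWG against Con with under 1.3 CPM in each group mean, and FZD10 was at 0.39. Of 17 Wnt inhibitors, KREMEN1 (-0.53 ± 0.16) and SFRP2 (-0.89 ± 0.39) were lower in LWG than in Con, and none passed in HWG against Con. DACT1 (1.30), DKK3 (0.62) and DACT2 (0.86, named after its values were seen) were higher in HWG than in LWG. In LWG against Con, HWG against Con and HWG against LWG, the receptors had medians of -0.09, 0.15 and 0.27 and the inhibitors of -0.41, 0.01 and 0.35. Of all tested genes, 2.83% were higher and 3.8% lower, 2.13% and 2.04%, and 5.15% and 5.41%, in that order of comparisons.

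Of 23 intracellular components, 2 were higher in LWG than in Con, the corepressor TLE1 (0.77 ± 0.26) and the transcription factor TCF7L2 (0.59 ± 0.27), and TLE3 was at 0.59. In HWG, 3 were higher than in Con: TCF7L1 (1.26 ± 0.38), TLE1 (0.58) and TLE4 (0.38). None passed between HWG and LWG. Of 16 other Wnt target genes, TIAM1, a Rac exchange factor, was lower in LWG than in Con (-0.78 ± 0.25) and higher in HWG than in LWG (0.74), ETS2 was higher in LWG than in Con (0.36), and MYB (0.61) and TNFRSF19 (0.56) were higher in HWG than in LWG. CD44 (0.40) and MYC (0.20) did not pass in HWG against Con. Over the 193 measured genes annotated to the Wnt pathway in the expression table, 3 were higher and 7 lower in LWG against Con, 7 and 2 in HWG against Con, and 17 and 6 in HWG against LWG. The higher and lower shares of all tested genes, in the same order of comparisons, were 2.83% and 3.8%, 2.13% and 2.04%, and 5.15% and 5.41%. In that order, the medians were 0.12, 0.10 and 0.02 for the intracellular components, -0.06, 0.08 and 0.23 for the target genes and 0.00, 0.05 and 0.04 for the annotated pathway.

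Of 21 other crypt stem and progenitor genes, CDCA7, a gene of replicating cells, was lower in LWG than in Con (-0.66 ± 0.29) and none passed in HWG against Con, where NR5A2 was at -0.63, CDK6 at -0.63 and NOX1 at 0.87. MYB, TNFRSF19 and the human stem cell marker OLFM4 (1.64, named after its values were seen) were higher in HWG than in LWG. Of 26 genes of the BMP pathway, which limits stem cell number in the crypt, follistatin FST (-1.23 ± 0.29), the receptor BMPR1B (2.07 CPM in LWG and 4.15 CPM in Con on average) and the ligand BMP6 (-0.43) were lower in LWG than in Con. The receptor BMPR2 was lower in HWG than in Con (-1.07 ± 0.35), where BMP7 (0.69) and ACVR2A (-0.56) did not pass. In HWG against LWG, FST (1.01), BMP6 (0.50) and, named after their values were seen, BMP2 (0.60) and BMP5 (0.67) were higher, and BMPR2 (-1.31) and ACVR2A (-0.72) lower. The 4 measured ephrins and other EPHB receptors did not pass in any comparison; in HWG against Con, EPHB1 was at 0.63, EFNB2 at 0.39, EFNB1 at 0.08 and EPHB6 at 0.01. The medians over the 3 comparisons were -0.10, 0.06 and 0.08 for the crypt genes, 0.04, 0.01 and 0.18 for the BMP genes and 0.00, 0.24 and 0.32 for the ephrins and EPHB receptors. The shares of all tested genes higher and lower were 2.83% and 3.8% in LWG against Con and 2.13% and 2.04% in HWG against Con. They were 5.15% and 5.41% in HWG against LWG.

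The genes most like each member were ranked by Pearson's r of log2 CPM over the 12 geese. LGR5 was closest to PCBP3 (0.955), NCAM2 (0.938) and MAML3 (0.932), SMOC2 to RAPGEF5 (0.940), ANKRD10 (0.919) and PHGDH (0.918), and AXIN2 to AQP5 (0.943), SIK1 (0.936) and MPHOSPH8 (0.926). EPHB2 was closest to RCC2 (0.931), TRIM29 (0.927) and PSMG1 (0.911), and EPHB3 to SYDE2 (0.952), SIK1 (0.946) and PLEKHA6 (0.945). SIK1 was thus shared by AXIN2 and EPHB3, the pair of members with the highest correlation. SOX9 was closest to PIK3R3 (0.929), TP53I11 (0.907) and HPSE2 (0.905), RNF43 to AASDH (0.883), FOXA1 (0.882) and KCNJ11 (0.872), ZNRF3 to MYNN (0.936), ABCA2 (0.935) and MGA (0.892), and LRIG1 to LRP11 (0.942), LYZ (0.911) and ADAMTS14 (0.906). These values are the highest among tested genes named by a symbol and carry no test.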

How the data were processed

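RNA-seq of the jejunum of 12 geese was analyzed. Per the study's methods, paired-end reads were trimmed with fastp, mapped with HISAT2 and quantified with StringTie; versions are not given in the sources used here. The authors deposited 1 table with whole-number counts per gene and FPKM values computed by the authors. Counts of 4 and 8 were more frequent than the counts next to them, so a count need not be 1 read pair and no counting interval was given. Counts were tested with edgeR 4.0.16 (R 4.3.3; filterByExpr, TMM, group as the only term, all 12 libraries, quasi-likelihood F-test, Benjamini-Hochberg), a fit tested on simulated data. The geese were separate birds, and no 2 libraries agreed within sampling noise. For the scores, CPM were put on the log2 scale with 2 as prior count. DESeq2 1.42.0, limma 3.58.1 on log2(FPKM + 0.1) and log2(FPKM + 1), other filters, scaling and left-out geese were alternatives. Named genes were the members, the 3 genes with a symbol most like each, and up to 3 genes per pathway list with the smallest p in LWG or HWG against Con. The members and lists were chosen with earlier results of these data known. Gene positions and sequences were not used here, because the table and the genome named in the methods differ in their sequence names.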

Additional observations from a re-analysis of the deposited data

Results flagged for a closer look

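Among the 9 members and 2 scores in the 3 groups of 4 geese, 33 groups in all, 2 held a goose set apart from the other 3 by more than Dixon's 95% critical value for 4 samples, which chance alone passes in about 1 of 20 groups. SMOC2 in HWG replicate 3 was 7.09 CPM, where the other 3 HWG geese had 13.0 to 14.2 CPM. LRIG1 in Con replicate 4 was 37.5 CPM, where the other 3 Con geese had 29.7 to 31.0 CPM.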

How the results depend on the processing

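With 4 geese a group and a biological coefficient of variation near 0.384, these libraries limit what single-gene tests can resolve. Under alternatives other than left-out geese, 250 member fold changes kept their direction and their side of an adjusted p of 0.05 and 20 reversed, and the causes of the changes below were not tested. DESeq2 called 37 genes in LWG against Con (17 higher, 20 lower), 5 in HWG against Con and 110 in HWG against LWG, and FST in LWG against Con then passed at -1.23 (adjusted p = 0.0395). Deviations from the group means had r from -0.28 to 0.38 between same-numbered geese and from -0.29 to 0.30 between differently numbered geese. These values do not settle whether the numbers pair birds. With the replicate block, HWG against LWG gave 8 genes, and HWG against Con 1 member past an unadjusted p of 0.05 (SMOC2). Members past that p in HWG against Con were also 1, again SMOC2, with DESeq2, limma on log2(FPKM + 1), no filter on low counts, or only the 2 groups compared. They were 4 with HOXA10 over GATA4 as a covariate. In LWG against Con they were 2 with only the 2 groups compared, 3 with HOXA10 over GATA4 and 0 with the enterocyte score; 1 passed without the proliferation score in the fit, where 0 did with it. In HWG against LWG they were 6 with HOXA10 over GATA4, when 2 of all genes passed adjustment, and 0 with the enterocyte score. Calls among all tested genes also changed with each covariate, as given with those fits above. In HWG against Con, 316 of 14863 genes were higher at that p in the main fit and 308 with the replicate block. They were 405 of 14863 with DESeq2, 218 of 12529 with limma on log2(FPKM + 1) and 427 of 17822 without the filter. With only the 2 groups compared, 400 of 14496 were higher there, and 525 of 14437 were lower in LWG against Con.

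Reversed values in LWG against Con were, for SMOC2, -0.23 and -0.073 (limma, pseudocounts of 0.1 and 1), -0.15 (replicate block) and -0.20 (HOXA10 over GATA4). RNF43 reversed to -0.10, -0.080 and -0.080 and ZNRF3 to -0.015 and -0.0099 under limma and, for RNF43, HOXA10 over GATA4. With the enterocyte score LGR5 reversed to 0.10, EPHB2 to 0.072, EPHB3 to 0.15, LRIG1 to 0.16 and EFNB2 to 0.21. In HWG against LWG the enterocyte score gave -0.077 for EPHB3, -0.10 for RNF43, -0.058 for ZNRF3 and -0.089 for LRIG1, and ZNRF3 was -0.00011 with only the 2 groups compared, -0.021 with the replicate block and -0.00047 with counts divided by 4. The FPKM scale moved the median of all genes to -0.10 in LWG against Con and 0.16 in HWG against LWG, and its unadjusted calls split 272 higher to 792 lower and 1127 to 516, against 420 to 565 and 765 to 804 in edgeR.

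Reversed correlations with the proliferation score were for LGR5 0.0085 (S phase genes), 0.15 (FPKM) and 0.0017 (without the 2 farthest geese), for SMOC2 -0.065 (G2 and M genes) and -0.17 (group means removed), for SOX9 -0.15 (group means removed), for RNF43 0.14 (FPKM) and 0.092 (without the 2 geese), for ZNRF3 0.0078 (FPKM), and for LRIG1 0.0048 (S phase genes), 0.26 (FPKM) and 0.034 (without the 2 geese). Other values kept their sign and grew. EPHB2 was at 0.58 with S phase genes (permutation p = 0.0536) and 0.35 with G2 and M genes. On FPKM, EPHB2 was at 0.57 (permutation p = 0.0538) and AXIN2 at 0.55 (p = 0.0654), and r was higher than in the main setting for all 9 members. None passed an unadjusted p of 0.05 in any setting.

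Leaving out 1 goose at a time gave 0 to 1 adjusted calls in LWG against Con, 0 to 2 in HWG against Con and 0 to 108 in HWG against LWG (108 without HWG replicate 3), and 0 to 2, 0 to 2 and 1 to 5 members past an unadjusted p of 0.05. It reversed the fold change in LWG against Con of LGR5 (-0.41 to 0.093), SMOC2 (-0.38 to 0.37), RNF43 (-0.24 to 0.20), ZNRF3 (-0.062 to 0.22), LRIG1 (-0.18 to 0.077), EPHB6 (-0.083 to 0.39) and EFNB2 (-0.20 to 0.066). In HWG against Con it reversed AXIN2 (-0.075 to 0.45), EPHB3 (-0.11 to 0.59), RNF43 (-0.070 to 0.43), ZNRF3 (-0.012 to 0.26), LRIG1 (-0.023 to 0.35) and EFNB1 (-0.038 to 0.22), and in HWG against LWG RNF43 (-0.11 to 0.52), ZNRF3 (-0.11 to 0.19) and LRIG1 (-0.00059 to 0.39). Reversed correlations were those of LGR5 (-0.23 to 0.044), SMOC2 (-0.12 to 0.17), RNF43 (-0.30 to 0.11) and LRIG1 (-0.18 to 0.16). Unadjusted calls over all tested genes also changed with the goose left out, as given with the member counts above.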
